A study of Mus musculus with 8 samples.

Results

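Levels of the ADAM and ADAMTS genes were compared between aortas of ApoE-/- mice, which lack apolipoprotein E and develop atherosclerosis, and aortas of wild-type (WT) mice. The genes were taken by symbol: every Adamts and Adamtsl gene, decysin (Adamdec1) and the ADAM genes Adam8, Adam9, Adam10, Adam12, Adam15, Adam17, Adam19, Adam22, Adam23 and Adam33. This gave 35 genes of the 21859 in the count files. Each of the 8 libraries came from the whole aorta of 1 male mouse aged 40 weeks on a normal (chow) diet, 4 with the germline ApoE knockout on a C57BL/6 background and 4 C57BL/6 WT. P-values therefore measure the spread between mice. The study's methods state that mice were fasted, killed with ketamine and xylazine and perfused with saline. In bulk tissue of this kind, fewer cells of a type and less RNA per cell cannot be told apart.

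ADAMs are proteases anchored in the cell membrane that cut the outer part off other membrane proteins, a step called shedding. Cytokines, growth factor precursors, adhesion molecules and scavenger receptors are released in this way, with ADAM10 and ADAM17 as the most studied enzymes. ADAMTS proteases are secreted, bind the extracellular matrix and cut proteoglycans such as versican and aggrecan, procollagens, cartilage oligomeric matrix protein (COMP) or von Willebrand factor, whereas ADAMTS-like proteins keep the binding domains and have no protease domain. Some of these enzymes are held in check by tissue inhibitors of metalloproteinases (TIMPs). Which members each TIMP acts on was not tested here.

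The active site of these enzymes binds a zinc ion through 3 histidines beside a catalytic glutamate. Its coding sequence, 11 codons long, was located in GENCODE M21 transcripts of the mouse genome GRCm38, because it separates members that can act as metalloproteases from those that cannot. Of the 35 members, 28 had 1 such stretch and 7 had none, namely Adam22, Adam23 and all 5 ADAMTS-like genes. The stretches of the 4 tested members whose genotypes did not overlap in the count data, and of the 2 most abundant members, are given 5′ to 3′ on the coding strand. Capitals mark the codons of the 3 histidines and of the glutamate.
Adam8: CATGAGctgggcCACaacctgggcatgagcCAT
Adam19: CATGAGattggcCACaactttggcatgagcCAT
Adam9: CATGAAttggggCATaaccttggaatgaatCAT
Adamts16: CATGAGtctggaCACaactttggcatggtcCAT
Adamts4: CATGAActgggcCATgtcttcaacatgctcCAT
Adamts1: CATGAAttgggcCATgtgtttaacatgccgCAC

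Those of Adam8 (chr7:139987893-139987925, minus strand), Adam19 (chr11:46125050-46125082, plus strand) and Adam9 (chr8:24990326-24990358, minus strand) each lie in exon 11. In Adamts16 (chr13:70787149-70791812, minus strand, exons 8 and 9), Adamts4 (chr1:171253210-171253915, plus strand, exons 3 and 4) and Adamts1 (chr16:85799191-85799545, minus strand, exons 3 and 4) an intron interrupts the stretch. Adam19 differed from Adam8 at 4 of the bases, and Adam9 at 8. The eighth codon reads asparagine in 5 ADAMTS members, Adamts1, Adamts4 and Adamts20 among them, serine in Adamts8 and glycine in the other 22. Decysin has aspartate in place of the last histidine.

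Between 23240995 and 23940156 read pairs fell on genes in ApoE-/- libraries and between 18375898 and 21664598 in WT libraries, without overlap. Apoe itself lay between 14.7 and 36.3 CPM, the count scaled to library size with TMM normalization, in ApoE-/- mice and between 536 and 857 CPM in WT mice, which matches the labels. All 35 members together summed to 2031 to 3176 CPM in ApoE-/- and 2357 to 3003 CPM in WT mice. Contractile smooth muscle markers, led by Myh11, were abundant in every library. The library of ApoE-/- mouse 1 stood apart from the rest. Its 10 smooth muscle markers summed to 5123 CPM against 11383 to 21348 CPM in the other 7 mice, its 8 sympathetic neuron markers to 5855 CPM against 28.3 to 1044 CPM, and its 6 nerve glia markers to 823 CPM against 102 to 593 CPM. Values without this mouse are given beside the results that it moved most. Macrophage markers summed to 419 to 1869 CPM in ApoE-/- mice and 225 to 334 CPM in WT mice, and endothelial markers to 1431 to 1952 CPM and 2033 to 2223 CPM, both without overlap. The sums also did not overlap for cardiac muscle markers, at 161 to 348 CPM in ApoE-/- and 426 to 752 CPM in WT mice, for B cell markers, at 12.9 to 31.1 and 5.32 to 8.47 CPM, and for T cell markers, at 8.48 to 14.9 and 5.76 to 8.40 CPM.

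Adamts1, which cleaves versican and aggrecan, was the most abundant member per kilobase of merged exon, at 90.7 ± 30.3 CPM per kb (SD, n = 8). Next came Adam9 at 39.6 ± 10.6 CPM per kb, Adam15 at 32.7 ± 3.63, Adamts10 at 23.2 ± 6.94, Adam10 at 22.3 ± 2.48 and Adamtsl3 at 21.6 ± 7.56 CPM per kb. Adamts1 exceeded Adam9 in all 8 mice, whereas Adam9 exceeded Adam15 in only 4 of 8. Of the 34 neighbouring pairs in the order of mean levels, 5 kept their order in all 8 mice. At the lower end, Adamts17, Adamts18, Adamts16 and Adamts19 lay between 0.0853 and 0.213 CPM per kb on average. Adamts13, the protease of von Willebrand factor, had 50 counts over all libraries and decysin 24, so neither passed the filter on low counts. Adamts13 had 9, 15, 7 and 6 counts in ApoE-/- mice and 4, 4, 0 and 5 in WT mice, which in CPM do not overlap either, but with so few counts it was not tested.

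**Figure D1:**
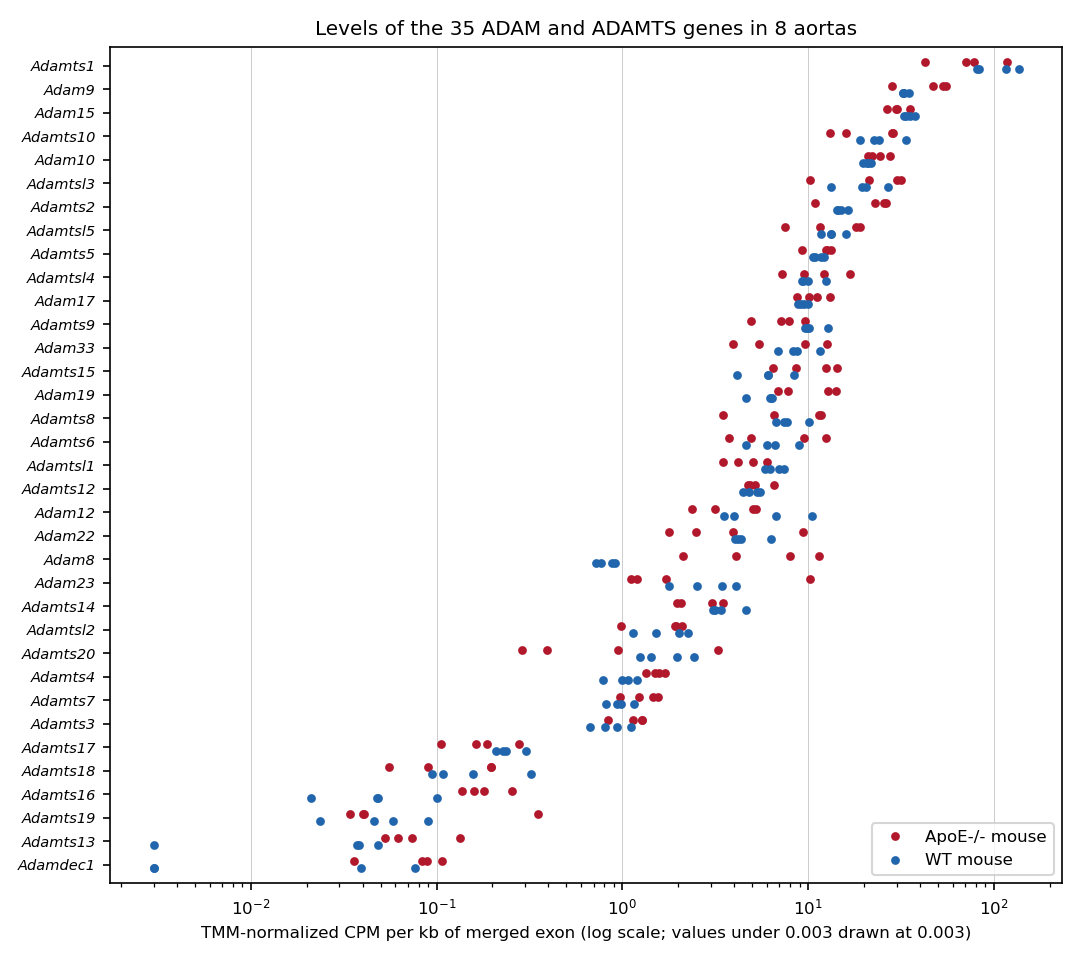
Level of each of the 35 members in each mouse, in TMM-normalized CPM per kb of merged exon on a log axis, sorted by the mean over the 8 mice. Red points are ApoE-/- mice and blue points WT mice. Adamts1 is at the top with a mean of 90.7 CPM per kb, and the red and blue points of Adam8 stand apart.

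None of the 33 members tested passed an adjusted p of 0.05 in edgeR, against 70 of 15077 genes (0.464%). With no adjustment, 8 members had a p under 0.05, 6 higher and 2 lower in ApoE-/- mice, where 7.19% of all genes tested were higher and 4.17% lower at that limit. DESeq2, run on the same counts, called 3 members, Adam8, Adamts16 and Adamts4, all higher in ApoE-/- mice, where it called 3.12% of all genes tested higher and 1.69% lower. limma-voom called none of them, and 0.179% of all genes. The 4 ApoE-/- values lay above the 4 WT values for 4 members (5.41% of all genes tested) and below them for none (3.3%). The median log2 fold change (log2FC, ApoE-/- over WT) of the members was 0.09, with 21 higher and 12 lower. That of all genes tested was 0.05, with 8747 higher and 6330 lower. The median size of the change, without its sign, was 0.37 for members and 0.17 for all genes tested.

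**Figure D2:**
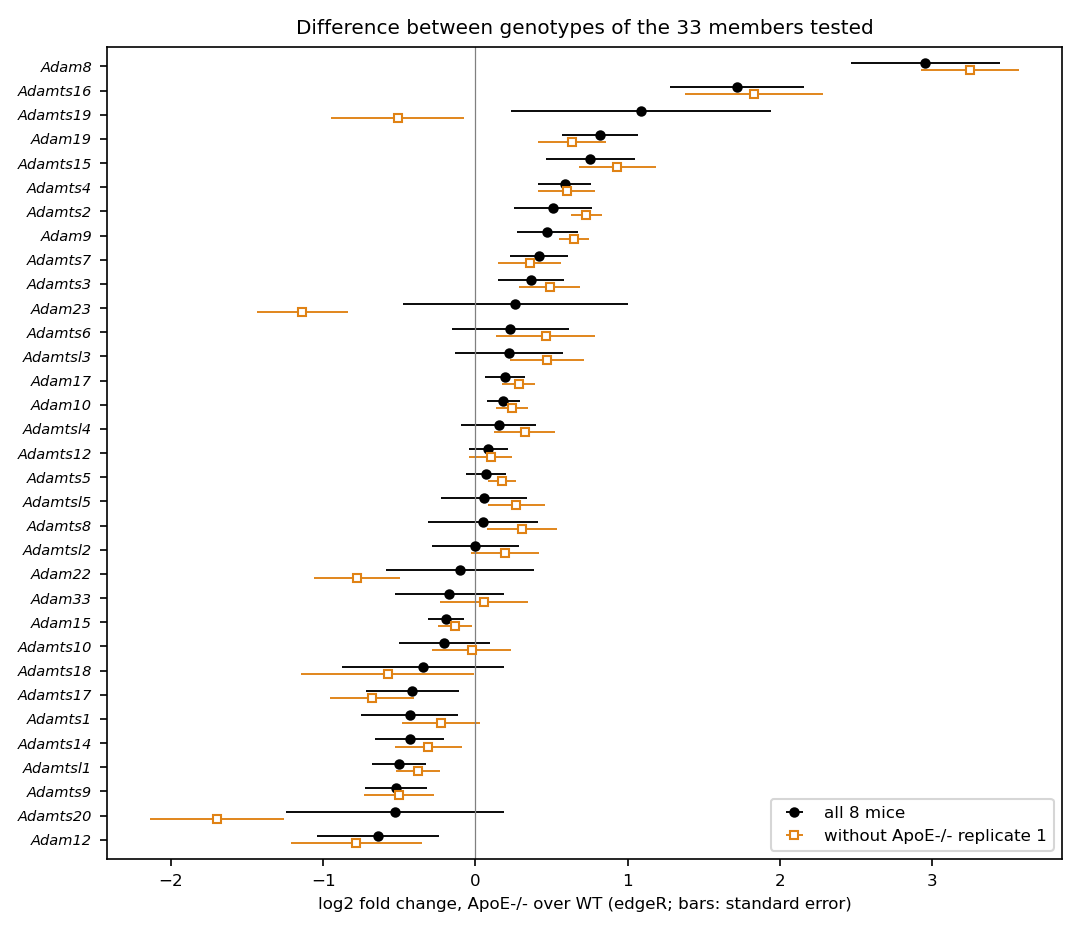
The log2FC of ApoE-/- over WT with its standard error for the 33 members tested, from edgeR on all 8 mice (filled circles) and without ApoE-/- mouse 1 (open squares). Adam8 has the largest value, 2.96, and Adam23 and Adamts19 move from above 0 to below 0 when that mouse is left out.

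Among the membrane-anchored ADAMs with an active site, Adam8, which is known from leukocytes, differed most. It was at 9.82, 19, 37.1 and 52.9 CPM in ApoE-/- mice 1 to 4 and at 3.58, 4.26, 4.10 and 3.35 CPM in WT mice 1 to 4. Every ApoE-/- mouse lay above every WT mouse, with a wide spread among ApoE-/- mice and almost none among WT mice. The mean was 29.7 ± 19.2 CPM in ApoE-/- and 3.82 ± 0.428 CPM in WT mice (SD, n = 4 each), a log2FC of 2.96 ± 0.49 (SE). The adjusted p was 0.0526 with edgeR, just above the threshold of 0.05, 1.53e-07 with DESeq2 and 0.134 with limma-voom. The exact two-sided permutation test gave p = 0.0286, the smallest that 4 against 4 mice allow. Without ApoE-/- mouse 1, the log2FC was 3.25 ± 0.32 (SE) and edgeR's adjusted p 0.00621, the lowest of the 8 fits with a mouse left out, in which it reached up to 0.202. Leaving out each of the 8 mice in turn, DESeq2 called Adam8 in all 8 fits, with an adjusted p of at most 2.38e-05.

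The summed macrophage markers of ApoE-/- mice 1 to 4 were 419, 757, 998 and 1869 CPM, in the same order as their Adam8 levels. All 10 macrophage markers were higher in each ApoE-/- mouse than in each WT mouse, and 3 were called by edgeR and 7 by DESeq2. Since the sums of the genotypes did not overlap, no correlation over all mice was computed. The B cell and T cell markers were higher in ApoE-/- mice as well, at lower levels, and their sums did not follow the order of Adam8 among ApoE-/- mice. The fibroblast marker sums of ApoE-/- mice 1 to 4, at 2337, 4213, 5581 and 6062 CPM, did have the same order as Adam8. The part of macrophage, lymphocyte or fibroblast content in the Adam8 difference was not tested. Adam8 lies on chromosome 7 (139978932 to 139992562, minus strand), as Apoe does, 120.3 Mb away from it. Adam12, Adamtsl3 and Adamts17 are on the same chromosome at 114.2, 62.6 and 47.1 Mb from Apoe.

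Adam19, a protease that sheds neuregulins, was the other ADAM whose genotypes did not overlap, and is described because of that. ApoE-/- mice 1 to 4 had 101, 55.6, 90.5 and 48.8 CPM and WT mice 45.5, 44.3, 44.9 and 33.1 CPM. The lowest ApoE-/- mouse was only slightly above the highest WT mouse. Its log2FC was 0.82 ± 0.25 (SE), with an adjusted p of 0.214 in edgeR and 0.0544 in DESeq2, and 0.63 ± 0.22 (SE) without ApoE-/- mouse 1. Antisense transcripts share 8.25% and 6.75% of its merged exon length on the opposite strand, which counts by strand keep apart.

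**Figure D3:**
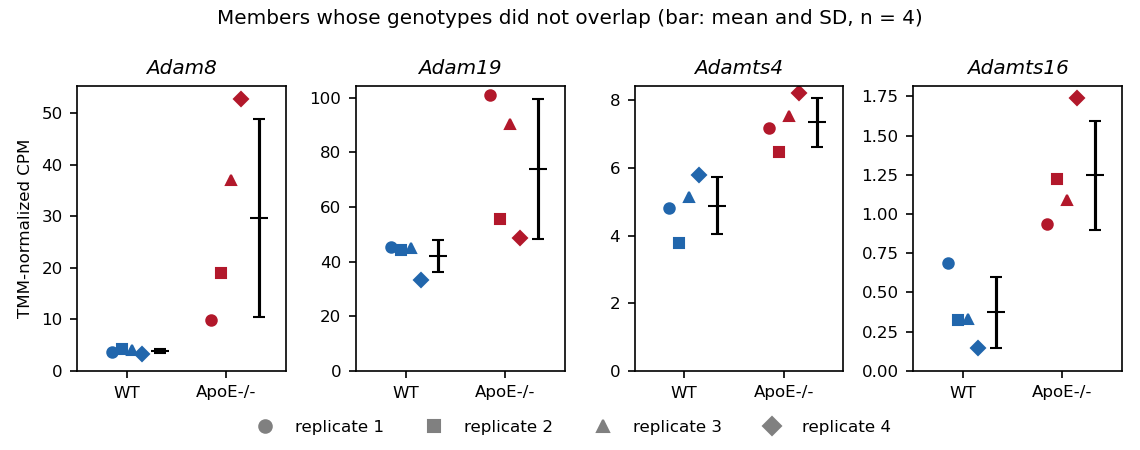
TMM-normalized CPM of Adam8, Adam19, Adamts4 and Adamts16 in each mouse, with the mean and SD of each genotype (n = 4) drawn beside the points. Symbols give the replicate number, which belongs to different mice in the 2 genotypes. In each panel the lowest ApoE-/- value lies above the highest WT value, by little in Adam19.

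The abundant sheddases did not pass the test with all mice. Adam9 was at 117, 193, 220 and 228 CPM in ApoE-/- mice 1 to 4 and between 133 and 143 CPM in WT mice. ApoE-/- mouse 1 lay below all WT mice and the other 3 above them. This gave a log2FC of 0.47 ± 0.20 (SE; edgeR adjusted p = 0.415), and without mouse 1 it was 0.65 ± 0.10 (SE; edgeR adjusted p = 0.0143). The 10 fibroblast markers had the same order among ApoE-/- mice, with sums of 2337, 4213, 5581 and 6062 CPM, against 2651 to 3049 CPM in WT mice. The macrophage sums of ApoE-/- mice had that order as well. The part of fibroblast or macrophage content in the Adam9 values was not tested.

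Adam15 was at 164, 183, 185 and 218 CPM in ApoE-/- mice and 201, 208, 218 and 231 CPM in WT mice, and the genotypes overlapped. Its log2FC was -0.19 ± 0.12 (SE; edgeR adjusted p = 0.648). An antisense transcript covers 20.6% of its merged exons on the opposite strand. Adam10, which sheds Notch receptors, cadherins and CX3CL1, was at 103, 120, 135 and 108 CPM in ApoE-/- mice and at 97.3, 103, 107 and 102 CPM in WT mice. The ranges overlapped, and the log2FC was 0.19 ± 0.11 (SE; edgeR adjusted p = 0.62), and 0.11 without ApoE-/- mouse 3. Adam17, the tumour necrosis factor converting enzyme, had a log2FC of 0.20 ± 0.13 (SE; edgeR adjusted p = 0.691), with 62.4 to 93.4 CPM in ApoE-/- mice and 63.5 to 71.2 CPM in WT mice. It was 0.088 without ApoE-/- mouse 4 and 0.28 without mouse 1. The remaining ADAMs of this class, Adam12 and Adam33, had log2FC values of -0.64 ± 0.40 and -0.17 ± 0.36 (SE). That of Adam12 was -0.26 without WT mouse 4, which had 111 CPM against 37.1 to 70.6 CPM in the other WT mice, and that of Adam33 was 0.06 ± 0.29 (SE) without ApoE-/- mouse 1.

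Adam22 and Adam23, which lack the active site and act as receptors for LGI proteins in nerve tissue, varied mainly with 1 mouse. Adam23 was at 182 CPM in ApoE-/- mouse 1, at 19.9, 30.9 and 21.4 CPM in ApoE-/- mice 2 to 4 and at 45, 73.2, 32.1 and 61.7 CPM in WT mice. Mouse 1 was the highest of all 8, and the other ApoE-/- mice lay below every WT mouse. The log2FC was 0.26 ± 0.74 (SE; edgeR adjusted p = 0.943) with all mice and -1.14 ± 0.30 (SE) without mouse 1, where DESeq2 called it lower (adjusted p = 0.00477) and edgeR did not (adjusted p = 0.0822). Adam22 was at 135 CPM in ApoE-/- mouse 1, 25.5 to 56.6 CPM in the other ApoE-/- mice and 58.1 to 90.4 CPM in WT mice, with a log2FC of -0.10 ± 0.48 (SE) and, without mouse 1, -0.78 ± 0.28 (SE). These members were singled out after their values were seen.

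Of the 7 proteoglycan-cleaving ADAMTS genes, 4 were higher and 3 lower in ApoE-/- mice, and DESeq2 called 1, Adamts4, higher (3.12% of all genes tested). Adamts4, an aggrecanase, was at 7.18, 6.47, 7.54 and 8.20 CPM in ApoE-/- mice and at 4.82, 3.79, 5.15 and 5.79 CPM in WT mice. The genotypes did not overlap and each varied little. Its log2FC was 0.59 ± 0.17 (SE), with an adjusted p of 0.194 in edgeR and 0.0435 in DESeq2. When 1 mouse was left out in turn, DESeq2 called Adamts4 in 2 of the 8 fits, those without ApoE-/- mouse 1 or WT mouse 4.

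Adamts1 was at 226, 413, 623 and 376 CPM in ApoE-/- mice and 431, 617, 721 and 441 CPM in WT mice. ApoE-/- mouse 1 was the lowest of all, and the genotypes overlapped. This gave a log2FC of -0.43 ± 0.32 (SE; edgeR adjusted p = 0.734), and it ranged from -0.71 without ApoE-/- mouse 3 to -0.23 without ApoE-/- mouse 1. Adamts5, the other main aggrecanase, showed a log2FC of 0.07 ± 0.13 (SE; edgeR adjusted p = 0.901) with 100.2 to 144 CPM in ApoE-/- and 114 to 131 CPM in WT mice. It was 0.17 ± 0.09 (SE) without ApoE-/- mouse 1 and 0.011 without ApoE-/- mouse 4. Adamts15 (0.76 ± 0.29) and Adamts9 (-0.52 ± 0.20) had log2FC values in opposite directions, with edgeR adjusted p of 0.359 and 0.367, and overlapping genotypes. Adamts20 was highest in ApoE-/- mouse 1, at 29.4 CPM, against 2.60 to 8.49 CPM in the other ApoE-/- mice and 11.1 to 22 CPM in WT mice.

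The 3 procollagen N-proteinases, which trim fibrillar procollagens, were led by Adamts2. It was at 102, 214, 246 and 238 CPM in ApoE-/- mice 1 to 4 and between 133 and 153 CPM in WT mice. As with Adam9, ApoE-/- mouse 1 lay below every WT mouse and the other 3 above them. The log2FC was 0.51 ± 0.26 (SE; edgeR adjusted p = 0.535) with all mice and 0.73 ± 0.10 (SE; edgeR adjusted p = 0.0113) without mouse 1. The sums of the fibroblast markers given beside Adam9 were likewise lowest in ApoE-/- mouse 1 and above all WT mice in the other 3. That list holds the procollagen gene Col1a1, and the part of fibroblast content in the Adamts2 values was not tested. Adamts3 had a log2FC of 0.37 ± 0.22 (SE) and Adamts14 one of -0.43 ± 0.23 (SE), neither past the threshold. That of Adamts14 ran from -0.59 without ApoE-/- mouse 3 to -0.28 without WT mouse 3. The COMP-cleaving Adamts7 and Adamts12 had log2FC values of 0.42 ± 0.19 and 0.09 ± 0.13 (SE).

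Adamts16, for which a fibronectin-cleaving activity is known, differed most among the other ADAMTS genes but was counted rarely. ApoE-/- mice had 23, 28, 25 and 40 counts and WT mice 15, 7, 6 and 3 counts. These correspond to 0.934, 1.22, 1.09 and 1.74 CPM and to 0.688, 0.328, 0.332 and 0.144 CPM, without overlap. Its log2FC was 1.72 ± 0.44 (SE), with an adjusted p of 0.133 in edgeR and 0.0309 in DESeq2. Leaving out 1 mouse in turn, DESeq2 called it in 2 of the 8 fits, those without ApoE-/- mouse 1 or WT mouse 1, with an adjusted p of up to 0.149 in the rest.

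Adamts10, which binds fibrillin microfibrils, was at 109, 238, 234 and 132 CPM in ApoE-/- mice and 187, 199, 278 and 158 CPM in WT mice. The genotypes overlapped, with ApoE-/- mice 1 and 4 below every WT mouse and WT mouse 3 above every ApoE-/- mouse. This gave a log2FC of -0.20 ± 0.30 (SE; edgeR adjusted p = 0.865), and -0.02 ± 0.26 (SE) without mouse 1. Among the ADAMTS-like genes, Adamtsl3 was at 79.6, 244, 233 and 165 CPM in ApoE-/- mice and 151, 158, 207 and 102 CPM in WT mice. ApoE-/- mouse 1 again had the lowest value, and the log2FC was 0.22 ± 0.36 (SE; edgeR adjusted p = 0.88) with all mice, 0.47 ± 0.24 (SE) without mouse 1 and 0.042 without ApoE-/- mouse 2. The other 4 ADAMTS-like genes lay between -0.50 (Adamtsl1) and 0.15 (Adamtsl4) on the log2 scale, and none was called by edgeR or DESeq2 with all mice. The log2FC of Adamtsl4 was 0.32 without ApoE-/- mouse 1 and -0.087 without ApoE-/- mouse 3.

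Without ApoE-/- mouse 1, edgeR called 593 of 15147 genes, with 2.75% of all genes tested called higher and 1.16% lower. It called 3 members, Adam8, Adam9 and Adamts2, all higher. DESeq2 called 8 members: Adam8, Adam9, Adamts2, Adamts4, Adamts15 and Adamts16 higher, against 5.75% of genes, and Adam23 and Adamts20 lower, against 4.56%. For Adamts20 the log2FC was -0.53 ± 0.72 (SE; adjusted p = 0.852 in edgeR and 0.879 in DESeq2) with all mice and -1.70 ± 0.44 (SE; adjusted p = 0.0798 and 0.00181) without that mouse. Non-overlapping genotypes, now 3 against 4, were found for 10 members in the higher direction (9.87% of all genes tested) and for 4 in the lower (7.39%). The median log2FC of the members was then 0.20, and that of the genes tested in both fits 0.0047. Without ApoE-/- mouse 3 instead, DESeq2 called 3 members, Adam8 higher and Adamtsl1 (log2FC -0.66, adjusted p = 0.0113) and Adamts9 (log2FC -0.68, adjusted p = 0.0464) lower, against 2.2% of genes called higher and 1.3% lower. Adam19 was called higher by DESeq2 without ApoE-/- mouse 2 (adjusted p = 0.0365) or mouse 4 (adjusted p = 0.00474). Those mice had its lowest ApoE-/- values, 55.6 and 48.8 CPM against 101 and 90.5 CPM in mice 1 and 3. Leaving either out therefore raises the ApoE-/- mean. The shares of all genes called in those fits are not set beside these calls. Over the 8 edgeR fits with a mouse left out, the log2FC of 21 of the 33 members tested moved by over 1.5 times in at least 1 fit, and that of 11 changed sign.

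The members that varied together with cell type markers were sought over all 8 mice, as relations chosen after the values were seen. For 33 members and the 7 marker lists whose genotypes overlapped, 231 relations were computed, and 10 had both Pearson's r and Spearman's rho past an adjusted exact permutation p of 0.05. Of the 10, 6 joined Adam22, Adam23 and Adamts20 to the nerve glia and the sympathetic neuron markers. For Adam23 and nerve glia, r was 0.956 (exact permutation p = 2.5e-05, the smallest that 40320 orderings allow, adjusted p = 0.00573) and rho was 1 (adjusted p = 0.0115). These rest partly on ApoE-/- mouse 1. Leaving out mice 1 and 2 of that genotype, the farthest from the median, r was 0.981 over 6 mice. Without mouse 1, however, the nerve glia sums did not overlap, at 102 to 178 CPM in ApoE-/- and 259 to 593 CPM in WT mice. Nor did the levels of Adam22, Adam23 and Adamts20. The r of these members with nerve glia over 6 mice therefore cannot be told apart from the genotype difference. Over the other 5 of these relations, r was 0.907 to 0.95 with all mice and 0.844 to 0.953 over 6 mice.

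Adamts10 and Adam33, a gene known from smooth muscle and fibroblasts, varied with the contractile smooth muscle markers. For Adamts10, r was 0.919 (exact permutation p = 0.000322, adjusted p = 0.0146) and rho 0.976 (adjusted p = 0.0131), with r = 0.972 over the 6 mice left without ApoE-/- mouse 1 and WT mouse 4. For Adam33, r was 0.932 (exact permutation p = 0.000496, adjusted p = 0.0146) and rho 0.929 (adjusted p = 0.043), with r = 0.957 over the same 6 mice. Adam12, which is known from adipocyte precursors, varied with the perivascular adipocyte markers, with r = 0.902 (exact permutation p = 0.00236, adjusted p = 0.032) and rho 0.976 (adjusted p = 0.0131), and r = 0.848 without ApoE-/- mouse 3 and WT mouse 4. The tenth relation, Adam9 with the fibroblast markers, fell into 2 clusters of mice, so no r is given. All points of a mouse share 1 library, and no relation within 1 genotype was tested because each holds 4 mice. Whether tissue composition accounts for these levels was not tested.

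**Figure D4:**
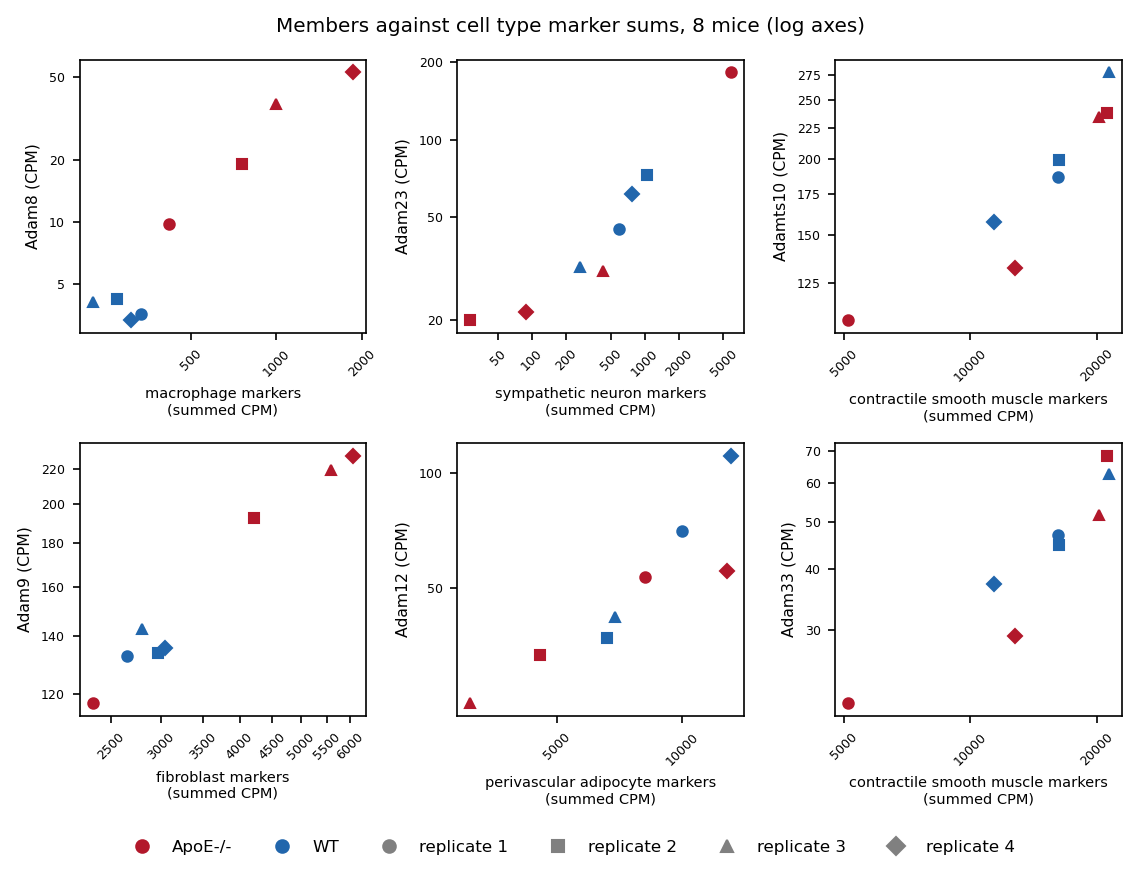
CPM of a member (y axis) against the summed CPM of a list of cell type markers (x axis), both on log axes, with 1 point per mouse. Red points are ApoE-/- mice, blue points WT mice, and symbols give the replicate number. The ApoE-/- mice have the same order in Adam8, in Adam9 and in the macrophage and fibroblast sums. Adam23, Adamts10, Adam12 and Adam33 rank much like the lists plotted here across both genotypes, with rho from 0.929 to 0.976 (for Adam23 with the sympathetic neuron list).

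Genes that act with the members were read from 5 lists. Of the 5 inhibitors, edgeR called Timp1 (0.464% of all genes tested were called in either direction), which was at 37.7, 55.2, 108 and 90.4 CPM in ApoE-/- mice and 6.61, 8.94, 6.32 and 6.46 CPM in WT mice. Every ApoE-/- value was far above every WT value, and the log2FC was 3.36 ± 0.35 (SE; edgeR adjusted p = 0.0353, and 0.00188 to 0.146 when each mouse was left out). Timp4 was at 79.6 to 133 CPM in ApoE-/- and 158 to 196 CPM in WT mice, without overlap, and its log2FC of -0.74 ± 0.17 (SE) passed in DESeq2 (adjusted p = 0.00232) and not in edgeR (adjusted p = 0.097). Timp3, the main physiological inhibitor of ADAM17 and of the aggrecanases, had a log2FC of 0.11 ± 0.29 (SE; edgeR adjusted p = 0.94), and 0.30 ± 0.22 (SE) without ApoE-/- mouse 1 and -0.20 without ApoE-/- mouse 3. Timp2, the most abundant inhibitor per kilobase, had one of 0.47 ± 0.23 (SE; edgeR adjusted p = 0.532).

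Of the membrane proteins shed by ADAM10 or ADAM17, 21 of 22 were tested. Of these, 17 were higher and 4 lower in ApoE-/- mice (8747 and 6330 of all genes tested), and their median log2FC was 0.26. edgeR called 1, Trem2, a receptor of lipid-laden macrophages, and DESeq2 called 6 higher and 1 lower, against 3.12% and 1.69% of all genes tested. Trem2 was at 5.07, 14.0, 28.9 and 40.8 CPM in ApoE-/- mice 1 to 4 and at 1.03 to 1.61 CPM in WT mice, with a log2FC of 4.10 ± 0.62 (SE; edgeR adjusted p = 0.0434, and 0.00392 to 0.177 when each mouse was left out). ApoE-/- mice kept the order seen for Adam8, for the fibroblast sum and for the macrophage sum, a list that holds Trem2. The adhesion molecules Vcam1 and Cd44 had log2FC values of 2.04 ± 0.35 and 1.47 ± 0.25 (SE; edgeR adjusted p = 0.0526 for each), and their genotypes did not overlap. The membrane-bound chemokines Cxcl16 and Cx3cl1 had log2FC values of 1.70 ± 0.35 and 1.70 ± 0.42 (SE), and Tnfrsf1b, a receptor of tumour necrosis factor, one of 1.11 ± 0.21 (SE). That of Cx3cl1 was 1.13 ± 0.21 (SE) without ApoE-/- mouse 3. The endothelial cadherin Cdh5 had a log2FC of -0.37 ± 0.11 (SE) in edgeR, which did not pass there (adjusted p = 0.219) and passed in DESeq2 (adjusted p = 0.00303, and 0.0565 without WT mouse 4), next to lower endothelial markers in 9 of 10 genes of a list that includes it. Axl, the most abundant of the list per kilobase, had a log2FC of 0.08 ± 0.26 (SE), and 0.29 ± 0.15 (SE) without ApoE-/- mouse 1 but -0.077 without ApoE-/- mouse 3.

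Of the 13 ADAMTS substrates, all tested, 10 were higher and 3 lower (8747 and 6330 of all genes tested). None was called by edgeR and 2 were called higher by DESeq2 (3.12% of all genes tested). Of the 10, Ncan, Bcan and Fbn2 had log2FC values of -1.22, -0.34 and -1.34 without ApoE-/- mouse 1, and Acan one of -0.091 without ApoE-/- mouse 3. Col2a1, also among the 10, had one of 6.61 with all mice and 0.85 without ApoE-/- mouse 3. That mouse had 240 CPM of Col2a1 against 0.388 to 1.87 CPM in the other mice. Col3a1, the most abundant substrate per kilobase, was at 1484 to 3797 CPM in ApoE-/- and 917 to 1301 CPM in WT mice, a log2FC of 1.36 ± 0.32 (SE; adjusted p = 0.107 in edgeR and 0.000583 in DESeq2). Col1a1, which is also on the fibroblast marker list, had a log2FC of 1.23 ± 0.41 (SE; adjusted p = 0.264 in edgeR and 0.0472 in DESeq2), with overlapping genotypes. Its DESeq2 call held in 1 of the 8 fits with a mouse left out, that without ApoE-/- mouse 1, and without ApoE-/- mouse 3 its log2FC was 0.77 ± 0.30 (SE; edgeR adjusted p = 0.438). None of the 12 tested genes for maturation and trafficking of ADAM10 and ADAM17, among which Tspan14 was the most abundant per kilobase, and none of the 6 ADAMTS partners and glycosylation genes, led by Lrp1, was called by either tool. With no adjustment, 1 gene of the latter list and none of the former had an edgeR p under 0.05, as had 11.4% of all genes tested. Without ApoE-/- mouse 1, edgeR called 14 genes of the 5 lists in place of 2, where it called 2.75% of all genes tested higher and 1.16% lower. The adjusted p of those higher was 0.00188 for Timp1, 0.0379 for Timp2, 0.00392 for Trem2, 0.00621 for Vcam1 and Cxcl16, 0.00871 for Cd44, 0.00895 for Tnfrsf1b, 0.0339 for Cx3cl1 and 0.0187 for Ereg, a ligand of the epidermal growth factor receptor. Among the substrates of the ADAMTS enzymes it was 0.0147 for Col3a1, 0.0439 for Col1a1 and 0.0393 for Col1a2, all higher. Timp4 and Papln were lower, with adjusted p of 0.0414 and 0.0327. Over the 8 edgeR fits with a mouse left out, 37 of the 57 tested genes of these lists moved by over 1.5 times in at least 1 fit, and 17 changed sign, 8 of them without ApoE-/- mouse 1.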

How the data were processed

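Stranded, ribodepleted total RNA of 8 mouse aortas was sequenced as paired reads, 1 library per mouse. The authors deposited raw counts of uniquely mapped read pairs per gene, without normalization or pooling; their processing notes name TopHat2, HTSeq and GRCm38/mm10, and versions are not given in the sources used here. Rows that name no gene held 64.4% to 67.7% of the pairs in ApoE-/- and 69.8% to 72.1% in WT libraries, without overlap, and were left out. Coordinates and exon lengths came from GENCODE M21 (GRCm38), in which 21817 of 21859 identifiers were found.

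Genes were filtered with filterByExpr (minimum count 10), normalized by TMM and tested with the quasi-likelihood F test of edgeR 4.0.16 in R 4.3.3 (glmQLFit with robust = TRUE), with genotype as the only factor. P-values were two-sided and adjusted by the Benjamini-Hochberg method over the 15077 genes tested, threshold 0.05. The standard error was the size of the log2 fold change divided by the square root of F. DESeq2 1.42.0, the tool named in the study's methods, limma-voom 3.58.1, other scalings, other filters, a block for the replicate number and fits with 1 mouse left out were alternatives. Single genes were compared by exact permutation over 70 assignments, correlations by exact permutation over 40320 orderings with Python 3.11.15. The scripts were tested on simulated data. The replicate numbers belong to different mice and do not pair them.

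Values in every mouse are given for members with an adjusted p under 0.05 in edgeR or DESeq2, members without overlap and with a log2 fold change beyond 1, and the 6 most abundant per kilobase. Of the pathway lists, genes past 0.05 in either tool and the most abundant are named. Other genes were named after their values were seen. The members and lists were chosen with earlier results of these data known. Between 18375898 and 23940156 pairs fell on genes, so that 3 counts correspond to 0.122 to 0.166 CPM.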

Additional observations from a re-analysis of the deposited data

Results flagged for a closer look

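Of the 66 groups of 4 mice, 1 per member tested and genotype, 6 held a mouse whose gap to its nearest neighbour took up more of the group's range than the 95% critical value of Dixon's test. Chance gives about 1 in 20 groups, or 3.3 of 66. Of the 6, 3 were ApoE-/- mouse 1. It was the highest for Adam23 (182 CPM against 19.9 to 30.9 CPM in the other ApoE-/- mice, ratio 0.933) and for Adamts19 (4.91 against 0.479 to 0.569 CPM, ratio 0.98), and the lowest for Adamtsl2 (7.87 against 15.3 to 16.7 CPM, ratio 0.842). In WT mice, mouse 3 was the highest for Adamts9 (193 against 144 to 151 CPM, ratio 0.856), mouse 2 the highest for Adam22 (90.4 against 58.1 to 62.2 CPM, ratio 0.872) and mouse 4 the lowest for Adam19 (33.1 against 44.3 to 45.5 CPM, ratio 0.899). Adamts19 had 121 counts in ApoE-/- mouse 1 and 6 to 27 in the other libraries. Its log2 fold change was 1.09 ± 0.85 (SE) with all mice and -0.51 ± 0.43 (SE) without mouse 1.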

How the results depend on the processing

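Of 788 refitted log2 fold changes of members, 707 kept their direction and their side of the threshold, 26 kept their direction and newly passed it, and 55 in 11 members changed sign. Members called numbered 0 with edgeR, 3 with DESeq2, 0 to 3 with edgeR and 1 to 8 with DESeq2 when each mouse was left out. All genes called numbered 70 with edgeR, 725 with DESeq2, 27 with limma-voom, 0 to 593 with edgeR and 445 to 1562 with DESeq2 when each mouse was left out. The pathway lists gave 2 calls with edgeR, 11 with DESeq2, 1 with limma-voom, and 0 to 14 with edgeR and 9 to 25 with DESeq2 when each mouse was left out. In each of these ranges the highest value was that without ApoE-/- mouse 1, and the 2 pathway calls of edgeR fell to 1 without ApoE-/- mouse 2 and to 0 without ApoE-/- mouse 3 or 4 or any WT mouse. Members without overlap numbered 4, and 5 to 14 when each mouse was left out, with 14 without ApoE-/- mouse 1 and 8 without ApoE-/- mouse 3 (4 higher and 4 lower, against 6.82% and 4.56% of all genes tested). With the replicate number as a block, 2 genes, 0 members and 0 pathway genes were called. The deviations of same-numbered mice correlated at 0.0593, -0.448, 0.316 and 0.162, so the numbers are shared only as names. The adjusted p of Adam8 ran from 0.0521 to 0.165 over the other edgeR and limma-voom settings with all mice.

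Signs changed only in members that had not passed the threshold in edgeR or DESeq2 with all mice. Leaving out mice gave -0.79 to 0.16 for Adam22, -1.15 to 0.56 for Adam23, -0.5 to 0.056 for Adam33, -0.038 to 0.14 for Adamts12, -0.6 to 0.16 for Adamts18, -0.52 to 1.44 for Adamts19, -0.11 to 0.46 for Adamts6, -0.16 to 0.31 for Adamts8, -0.16 to 0.2 for Adamtsl2, -0.095 to 0.32 for Adamtsl4 and -0.13 to 0.27 for Adamtsl5. limma-voom gave -0.36 for Adam23, -0.088 for Adamts8, -0.0047 for Adamtsl2 and -0.028 for Adamtsl5, and the replicate block -0.43, -0.079, -0.0099 and -0.025. Adamtsl2, at 0.0009 with all mice, was at -0.0044 with DESeq2, -0.0045 with its size factors, -0.023 with upper-quartile factors, -0.0016 without a filter and -0.00028 with 10 counts required in every library. The cause of these changes was not tested. With 4 mice per genotype and the spread seen here, small differences of members could not be told from 0.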

Other observations

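Summed by class, the levels of the members differed between genotypes by less than their spread in most classes. The 7 proteoglycan-cleaving ADAMTS genes summed to 814 ± 238 CPM in ApoE-/- and 956 ± 188 CPM in WT mice (SD, n = 4 each), and the 8 ADAMs of the sheddase class to 758 ± 91.4 and 679 ± 35.2 CPM. The sheddase sum was 632 CPM in ApoE-/- mouse 1, 752 to 834 CPM in the other 3 and 643 to 724 CPM in WT mice. The 3 procollagen N-proteinases summed to 220 ± 70.1 CPM in ApoE-/- mice, with 117 CPM in mouse 1 and 236 to 271 CPM in the other 3, and to 164 ± 13.5 CPM in WT mice. The 5 ADAMTS-like genes summed to 369 ± 130 and 360 ± 64.1 CPM. Adam22 and Adam23 together reached 317 CPM in ApoE-/- mouse 1, against 46.9 to 87.5 CPM in the other ApoE-/- mice and 90.2 to 164 CPM in WT mice. Over all 35 members the sums were 2598 ± 481 CPM in ApoE-/- and 2602 ± 302 CPM in WT mice. ApoE-/- mouse 1 was at 2031 CPM and the other 3 at 2454 to 3176 CPM. No test was run on these sums.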
